A study of Rattus norvegicus with 30 samples.

Results

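The genes described here are 35 listed genes of glucose and lactate transport, glycolysis, glycogen handling and the hypoxia response. The genes were listed by name and not by a filter on their values, but with earlier results of these data known. Of the 35, 33 were measured by a probe set that names a single gene, among 14217 genes in all. They comprised 4 of 4 transporters, 15 of 17 glycolytic enzymes, 3 of 3 regulators of glycolytic and pyruvate flux, 2 of 2 glycogen genes and 9 of 9 other hypoxia-induced genes. Gapdh and Pkm were not counted, because their probe sets name several genes or are array controls.

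The tissue was oesophageal epithelium, from 30 male rats of the Sprague-Dawley stock, each on an array of its own. Every rat, the controls included, went onto its diet at 4 weeks of age and received 4 weekly intragastric doses of 2 mg/kg of N-nitrosomethylbenzylamine (NMBA), which causes tumours in the rodent oesophagus, from week 5. Unedited rats ate food low in zinc (ZD, ad libitum, n = 5) or with enough zinc (ZS, pair-fed to the ZD rats, n = 5) and got no other treatment. In 5 more ZD rats miR-31, a microRNA, was blocked for 5 weeks by an LNA oligonucleotide (antimiR) injected into the tail vein, first at 20 mg/kg and then 9 times at 6 mg/kg. Another 5 ZD rats received the same course and 20 additional doses of 6 mg/kg, up to 20 weeks. The remaining 10 rats carried a constitutive miR-31 deletion (miR-31-/-, made with CRISPR/Cas9), 6 on ZD and 4 on ZS. The untreated ZD and ZS rats had no control oligonucleotide. The labels end the experiment 48 h after the last antimiR dose or 15 weeks after the first NMBA dose, and do not say at which age the 5-week group was sampled. No wild-type littermates are among the arrays analysed here, so the knockout groups are read without an unedited control of their own litters. The number of knockout lines is not stated in the labels.

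Glycolysis splits glucose into pyruvate in the cytosol. When oxygen is short, the transcription factor HIF-1 raises the genes for glucose uptake, most glycolytic steps, the reduction of pyruvate to lactate and the export of lactate, and it raises genes that remove mitochondria and fold secreted proteins under low oxygen. Proliferating and wounded squamous epithelium also uses this programme while oxygen is present, so these genes are read in the oesophagus alongside growth and inflammation. Epithelium on a zinc-deficient diet thickens and proliferates, and miR-31 is a microRNA known to be high in oesophageal cancer.

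The microRNA that the antimiR binds and the knockout lacks is shown here with its seed, bases 2 to 8, in capitals; it lies on chr5:108714906-108714927 on the minus strand (RefSeq, build GRCr8).
rno-miR-31a-5p: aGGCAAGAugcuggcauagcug

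HIF-1 binds short promoter sequences with the core ACGTG or GCGTG. The 250 bases before the start site were searched on both strands for these letters, in the 28 measured members that have a RefSeq promoter entry. ACGTG overlaps CACGTG, the E-box that Myc and other factors bind, and a match is a description of letters and not a binding site. At least 1 match in any of its entries was present in 23 of the 28 members, or 82.1%. The like share was 53.5% of the 11733 measured genes and 39.6% of all 27457 genes with an entry. Counted by entry, 36.7% of the 33469 promoter entries held a match. The median GC content was 64.0% in the members, 58.8% in the measured genes and 51.2% over all entries, so the windows also differ in base composition. Windows of 4 members that rose on the deficient diet, and of P4ha2, which fell in knockout rats, are shown from 5′ to 3′ on the gene's strand with the matches in capitals.
Bnip3, chr1:203154963-203155212, minus strand: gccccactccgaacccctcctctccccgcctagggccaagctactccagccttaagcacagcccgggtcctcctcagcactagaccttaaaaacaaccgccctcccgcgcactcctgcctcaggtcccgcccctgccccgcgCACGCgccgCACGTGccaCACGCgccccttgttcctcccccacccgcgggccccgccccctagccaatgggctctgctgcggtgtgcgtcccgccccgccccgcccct
Ldha, chr1:106507842-106508091, plus strand: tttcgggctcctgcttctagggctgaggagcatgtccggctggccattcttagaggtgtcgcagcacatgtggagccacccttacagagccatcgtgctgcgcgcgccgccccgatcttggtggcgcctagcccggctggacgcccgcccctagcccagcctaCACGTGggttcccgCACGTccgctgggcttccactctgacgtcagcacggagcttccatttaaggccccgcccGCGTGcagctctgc
Slc2a1, chr5:138002272-138002521, plus strand: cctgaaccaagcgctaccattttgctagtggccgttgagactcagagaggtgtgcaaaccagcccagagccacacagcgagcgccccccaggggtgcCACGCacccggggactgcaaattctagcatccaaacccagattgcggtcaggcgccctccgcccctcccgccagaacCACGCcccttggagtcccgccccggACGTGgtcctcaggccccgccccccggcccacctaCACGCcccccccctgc
Pgam1, chr1:250672902-250673151, plus strand: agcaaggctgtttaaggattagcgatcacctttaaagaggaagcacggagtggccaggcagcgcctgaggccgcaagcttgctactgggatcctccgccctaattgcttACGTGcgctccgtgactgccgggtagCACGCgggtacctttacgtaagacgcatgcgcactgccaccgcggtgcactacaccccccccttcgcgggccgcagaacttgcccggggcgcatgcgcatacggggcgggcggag
P4ha2, chr10:38743644-38743893, plus strand: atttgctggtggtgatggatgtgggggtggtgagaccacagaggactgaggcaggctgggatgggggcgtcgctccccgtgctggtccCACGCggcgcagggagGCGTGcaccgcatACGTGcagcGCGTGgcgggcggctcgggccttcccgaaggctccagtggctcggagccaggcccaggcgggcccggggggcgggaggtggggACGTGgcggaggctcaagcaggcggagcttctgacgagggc
The windows of Hk2 and Tpi1, which also rose on the deficient diet, held no match. Of the members with an entry, 7 of the 9 that rose on ZD in unedited rats had a match, as did 7 of the 9 whose diet change differed between genotypes.

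Values are log2 expression per probe set. The 20 unedited arrays had medians of 5.37 to 5.45 and the 10 knockout arrays medians of 5.81 to 5.93. The sets were taken as normalized separately, so no knockout array was set against an unedited one, and only diet differences within each set, and the difference between those differences, were tested. Arrays of a group correlated at 0.977 or more. The 11 squamous epithelium markers averaged between 12.06 and 12.40 on every array, so the cells named by the tissue label were present, while smooth muscle markers varied between groups as given beside the results. A gene is said to rise, fall or change only where the limma adjusted p, over all 14217 genes of a comparison, was under 0.05. In whole tissue, fewer cells of a type and less RNA per cell cannot be told apart.

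On the zinc-deficient diet, unedited rats had more transcript of the glucose transporter gene Slc2a1, of 5 of 15 measured glycolytic enzymes (Hk2, Pfkp, Tpi1, Pgam1 and Ldha), of the regulator Pfkfb3 and of 4 of 9 other hypoxia-induced genes (Bnip3, Ndrg1, Ddit4 and Ero1a). The enzymes Eno2 and Ldhb fell. Of the 33 members, 11 rose and 2 fell in ZD against ZS rats without antimiR. Over all genes, 6.94% rose and 6.95% fell. The median change of the members was 0.29 log2 units against 0.004 over all genes, and 22 of 33 were above 0 where 50.8% of all genes were. The 5 ZD arrays lay wholly above the 5 ZS arrays for 7 members (5.91% of all genes) and wholly below for 2 (5.45%).

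**Figure D1:**
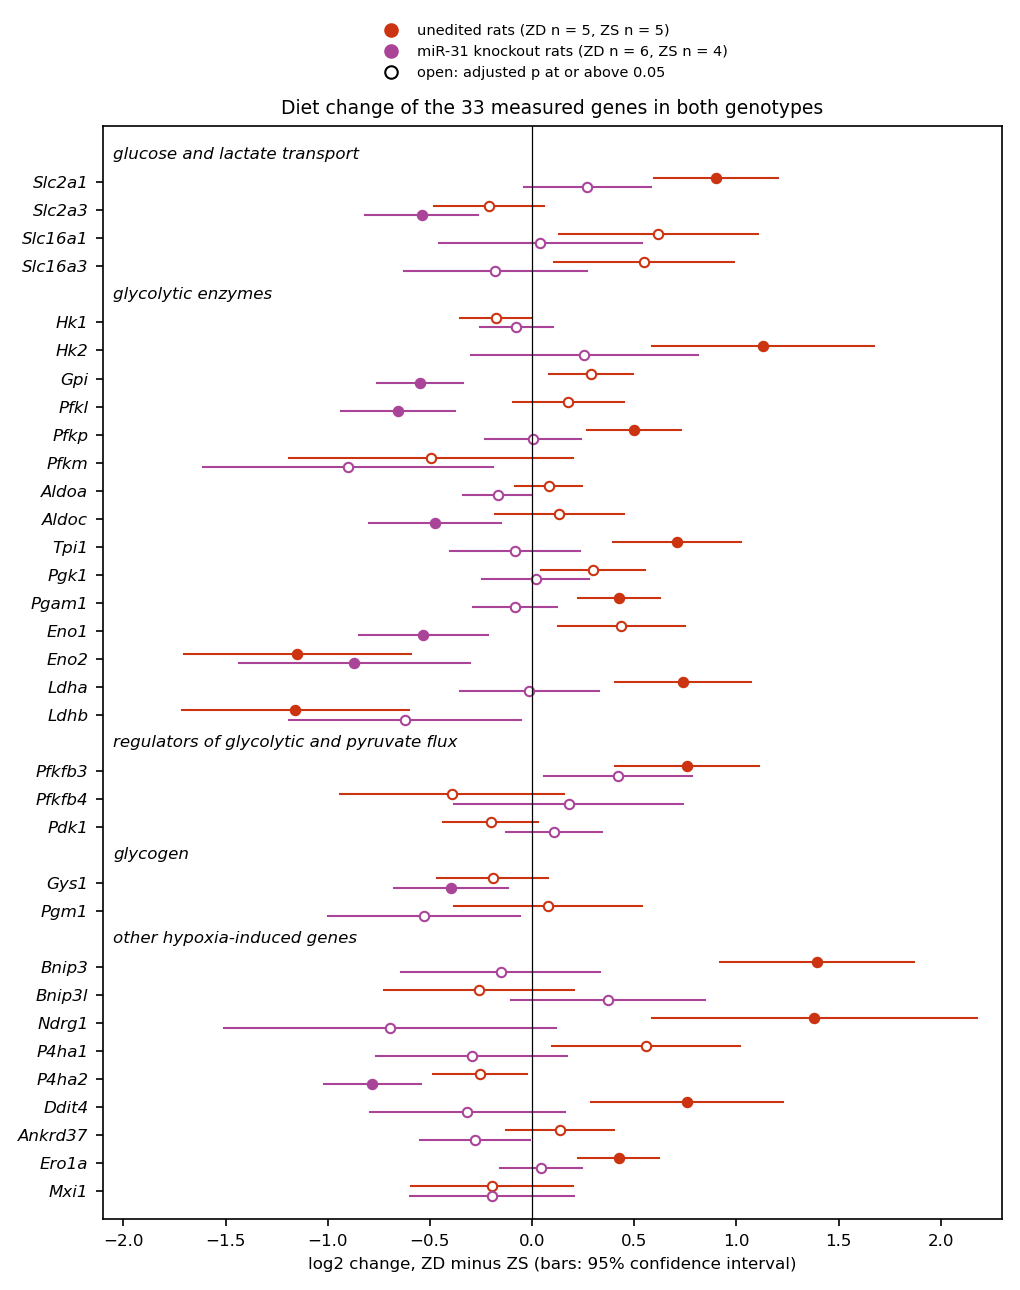
Fitted log2 change with diet, ZD minus ZS, of the 33 measured genes by role, with 95% confidence intervals, in unedited rats (red, 5 ZD and 5 ZS arrays) and miR-31 knockout rats (purple, 6 ZD and 4 ZS arrays). Filled points have a limma adjusted p under 0.05: 11 filled red points lie to the right of 0 and 2 to the left, and the 8 filled purple points all lie to the left.

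Among the transporters, Slc2a1, which encodes the glucose transporter GLUT1, rose most clearly. Its values were 10.48, 11.04, 10.14, 10.44 and 10.24 on the ZD arrays and 9.74, 9.51, 9.57, 9.31 and 9.72 on the ZS arrays. Every ZD value lay above every ZS value, and the change was 0.90 (SE 0.15, adjusted p = 0.000275), or 1.87-fold. Slc2a3, the high-affinity glucose transporter GLUT3, was dim on unedited arrays, at 3.52, 3.46, 3.49, 3.71 and 3.61 on ZD and 4.07, 3.51, 3.68, 3.81 and 3.78 on ZS. They overlapped, with a difference of -0.21 (SE 0.13, adjusted p = 0.309). The lactate carriers Slc16a1 (MCT1) and Slc16a3 (MCT4) missed the threshold. Slc16a1 measured 9.18, 9.63, 10.09, 10.07 and 8.88 on ZD and 8.74, 8.80, 8.80, 9.04 and 9.37 on ZS, a difference of 0.62 (SE 0.24, adjusted p = 0.0802). Slc16a3 measured 5.40, 6.74, 5.21, 4.93 and 4.92 on ZD and 4.99, 5.01, 4.99, 4.53 and 4.93 on ZS, a difference of 0.55 (SE 0.21, adjusted p = 0.086). ZD array 12, at 6.74, stood apart from the other ZD arrays, which ran from 4.92 to 5.40.

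Hexokinases trap glucose in the cell. Hk2, the inducible form, measured 5.70, 7.39, 5.56, 6.41 and 5.46 on ZD and 4.71, 5.01, 5.18, 4.78 and 5.18 on ZS, with no overlap. It rose by 1.13 (SE 0.27, adjusted p = 0.00553), or 2.19-fold. Hk1, the form found in most tissues, measured 9.35, 9.45, 9.61, 9.46 and 9.67 on ZD and 9.77, 9.75, 9.63, 9.56 and 9.71 on ZS. The groups overlapped and the difference was -0.18 (SE 0.09, adjusted p = 0.174).

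Phosphofructokinase commits sugar to glycolysis, and 1 of its 3 subunits rose. Pfkp, the platelet-type subunit, measured 11.03, 11.09, 11.14, 11.38 and 11.23 on ZD and 10.83, 10.69, 10.54, 10.79 and 10.54 on ZS, without overlap, and rose by 0.50 (SE 0.11, adjusted p = 0.00436). Pfkl, the liver-type subunit, measured 6.40, 7.16, 6.31, 6.57 and 6.16 and 6.35, 6.27, 6.34, 6.23 and 6.50. Array 12 was the highest, the groups overlapped and the difference was 0.18 (SE 0.13, adjusted p = 0.407). Pfkm, the muscle-type subunit, differed by -0.50 (SE 0.34, adjusted p = 0.36). Pfkfb3, which makes the activator fructose 2,6-bisphosphate, measured 7.40, 7.71, 7.18, 7.72 and 7.93 on ZD and 6.76, 7.21, 7.07, 6.50 and 6.61 on ZS. The lowest ZD value touched the top of the ZS range, and Pfkfb3 rose by 0.76 (SE 0.17, adjusted p = 0.00456). A less bright probe set of Pfkfb3 changed by 0.20 and another by -0.04, so the rise is mainly that of the brightest of 3 probe sets, and the mean over them changed by 0.31 (adjusted p = 0.0414). Gpi, which interconverts glucose 6-phosphate and fructose 6-phosphate, measured 9.83, 10.31, 10.14, 10.23 and 10.04 on ZD and 9.94, 10.03, 9.86, 9.57 and 9.71 on ZS, overlapping, with a difference of 0.29 (SE 0.10, adjusted p = 0.053).

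In the lower part of the pathway, triose phosphate isomerase (Tpi1), phosphoglycerate mutase (Pgam1) and the lactate dehydrogenase A subunit (Ldha) rose. Tpi1 measured 11.23, 11.93, 11.21, 11.61 and 11.03 on ZD and 10.60, 10.90, 10.80, 10.47 and 10.69 on ZS, without overlap, and rose by 0.71 (SE 0.15, adjusted p = 0.003). Pgam1 measured 11.65, 11.99, 11.68, 11.99 and 11.49 and 11.30, 11.40, 11.37, 11.22 and 11.39, also without overlap, and rose by 0.42 (SE 0.10, adjusted p = 0.00489). The aldolases Aldoa and Aldoc and the kinase Pgk1 lay between 0.08 and 0.30 and missed the threshold. Aldoc measured 6.23, 6.88, 5.98, 5.97 and 6.20 on ZD and 5.76, 6.25, 6.25, 6.31 and 6.02 on ZS, with overlap and a difference of 0.13 (SE 0.15, adjusted p = 0.621). Eno1, the enolase of most tissues, measured 10.79, 11.33, 11.05, 11.42 and 10.86 on ZD and 10.57, 10.48, 10.95, 10.54 and 10.72 on ZS. Its lowest ZD values overlapped the ZS range, and the difference of 0.44 (SE 0.15, adjusted p = 0.0529) just missed the threshold. Eno2, known as neuron-specific enolase, went the other way, at 4.53, 4.75, 4.63, 4.14 and 4.82 on ZD and 5.60, 5.38, 5.37, 6.60 and 5.66 on ZS. All ZD values were below all ZS values and Eno2 fell by 1.15 (SE 0.27, adjusted p = 0.00568).

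The lactate dehydrogenase subunits diverged. Ldha, which favours the making of lactate, measured 11.79, 12.53, 12.04, 12.39 and 11.42 on ZD and 11.21, 11.21, 11.33, 11.22 and 11.50 on ZS. Only the lowest ZD array, array 15, fell within the ZS range, and Ldha rose by 0.74 (SE 0.16, adjusted p = 0.00377), or 1.67-fold. Ldhb, which favours the use of lactate, measured 7.04, 6.93, 7.17, 5.92 and 6.59 on ZD and 7.99, 7.55, 7.92, 7.84 and 8.14 on ZS. Every ZD value was below every ZS value, and Ldhb fell by 1.16 (SE 0.27, adjusted p = 0.00544). Pdk1, a kinase that inhibits pyruvate dehydrogenase, and Pfkfb4 differed by -0.20 (SE 0.11, adjusted p = 0.251) and -0.39 (SE 0.27, adjusted p = 0.359). The glycogen genes Gys1, glycogen synthase, and Pgm1 differed by -0.19 (SE 0.13, adjusted p = 0.368) and 0.08 (SE 0.22, adjusted p = 0.862).

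Of the other hypoxia-induced genes, 4 of 9 rose. Bnip3, a receptor that marks mitochondria for removal, measured 9.41, 9.83, 8.73, 9.82 and 10.01 on ZD and 7.92, 8.21, 8.28, 8.16 and 8.26 on ZS. No ZD value reached down to the ZS range, and Bnip3 rose by 1.40 (SE 0.23, adjusted p = 0.000304), or 2.63-fold, while its relative Bnip3l differed by -0.26 (SE 0.23, adjusted p = 0.496). Ndrg1, a stress-responsive gene of differentiated epithelium, measured 9.39, 11.44, 7.95, 8.96 and 8.15 on ZD and 7.91, 7.63, 7.44, 8.04 and 7.96 on ZS. Array 12 stood far above and array 13 lay inside the ZS range, and Ndrg1 rose by 1.38 (SE 0.39, adjusted p = 0.0176). Without array 12 it differed by 0.82 (adjusted p = 0.0412). Its less bright probe set differed by 0.98 in the same direction. Ddit4, an inhibitor of the growth kinase mTORC1, measured 8.59, 9.99, 9.36, 9.88 and 8.93 on ZD and 8.68, 8.61, 8.43, 8.56 and 8.67 on ZS. Array 11 lay within the ZS range, and Ddit4 rose by 0.76 (SE 0.23, adjusted p = 0.0262), a call lost without array 12, without array 14 or without ZS array 18. Ero1a, which drives disulfide formation in the endoplasmic reticulum, measured 7.95, 8.14, 7.86, 7.90 and 8.13 on ZD and 7.46, 7.76, 7.65, 7.48 and 7.50 on ZS, without overlap, and rose by 0.42 (SE 0.10, adjusted p = 0.0045).

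The collagen prolyl hydroxylase subunits, the ankyrin repeat gene Ankrd37 and the Myc antagonist Mxi1 made no call. P4ha1 differed by 0.56 (SE 0.22, adjusted p = 0.0968) and Mxi1 by -0.20 (SE 0.19, adjusted p = 0.551). P4ha2 measured 7.05, 6.96, 6.76, 6.64 and 6.93 on ZD and 6.94, 7.28, 7.01, 7.22 and 7.17 on ZS, overlapping, with a difference of -0.25 (SE 0.11, adjusted p = 0.135). Ankrd37 measured 4.69, 5.06, 4.31, 4.46 and 4.90 on ZD and 4.47, 4.52, 4.63, 4.60 and 4.51 on ZS, with a difference of 0.14 (SE 0.13, adjusted p = 0.528).

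**Figure D2:**
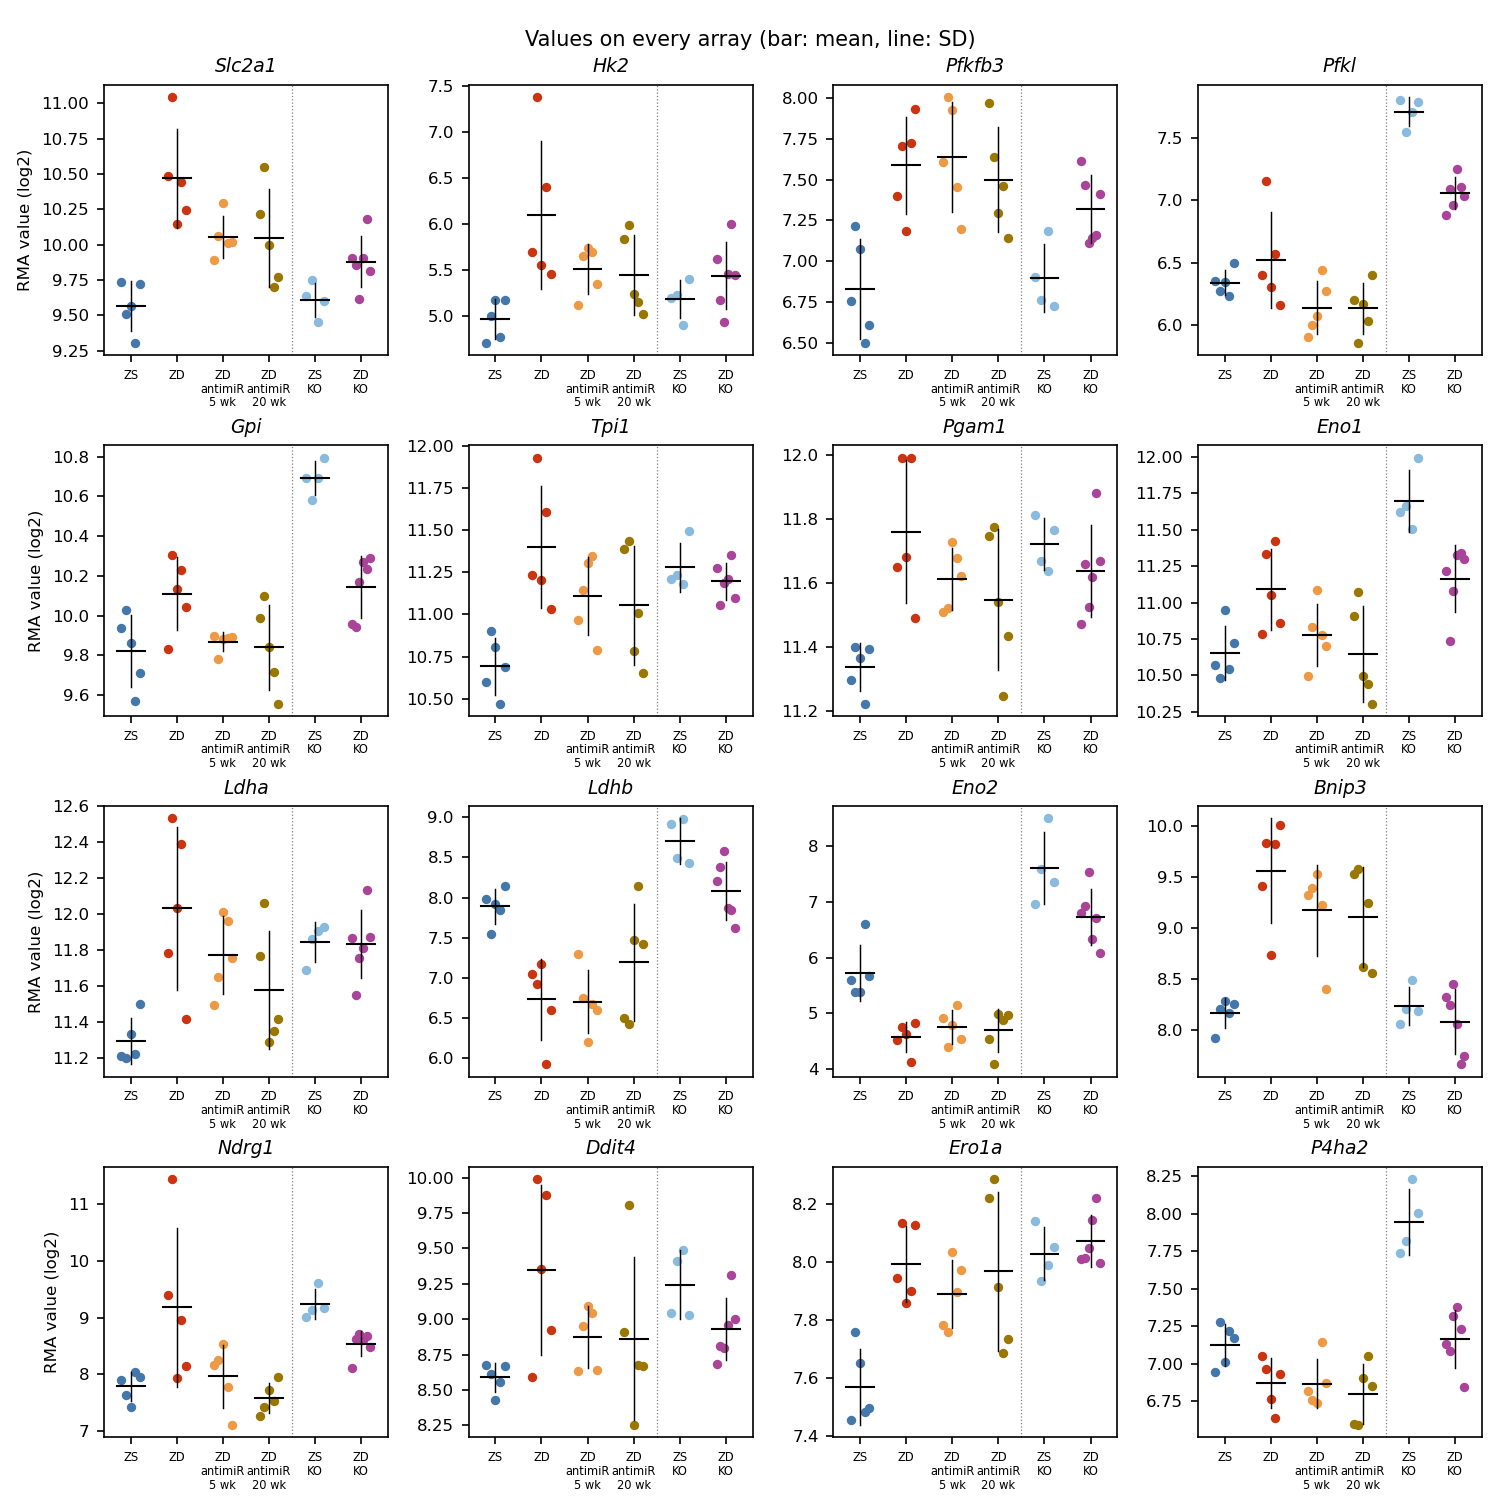
Values (log2) on every array for 16 of the members in the 6 groups; a bar marks the mean, a vertical line the SD, and the dotted line separates the knockout set, whose levels were not compared with the unedited set. For Slc2a1, Hk2, Bnip3 and Tpi1 the 5 red ZD points all sit above the 5 blue ZS points, while for Gpi, Pfkl and P4ha2 the 6 purple points all sit below the 4 light blue ones.

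Smooth muscle markers moved with the diet too: 12 of 14 fell on ZD, and their mean per array was 7.42 to 8.31 on ZD arrays and 8.94 to 10.28 on ZS arrays. With that mean as a covariate, 1 of the 33 members stayed called, Bnip3 at 1.498 (SE 0.31, adjusted p = 0.0172), the share called over all genes dropped from 13.9% to 1.23%, and the members' median was 0.15. In that fit Slc2a1 differed by 0.52 (SE 0.16, adjusted p = 0.111), Pfkfb3 by 0.61 (SE 0.23, adjusted p = 0.188), Ldhb by -0.52 (SE 0.31, adjusted p = 0.453) and Eno2 by -0.21 (SE 0.24, adjusted p = 0.735). The covariate itself differs between the diets without overlap, so its part and that of the diet cannot be told apart in these 10 rats. ZD arrays had macrophage means of 6.21 to 6.53, barely overlapping the 5.79 to 6.21 of ZS arrays. Erythroid means of 5.55 to 6.16 lay wholly above the ZS means of 5.10 to 5.46. Of 10 macrophage markers 9 were above 0 and 1 rose. So did 1 of 3 erythroid, 1 of 6 neutrophil, 1 of 8 endothelial and 1 of 6 adipocyte markers. No fibroblast, striated muscle or T and B cell marker was called. What these cells contributed was not tested. Array 12 had the highest mean over the 33 members, 8.92 against 8.48 to 8.53 on the other ZD arrays, and without it 12 members were called.

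**Figure D3:**
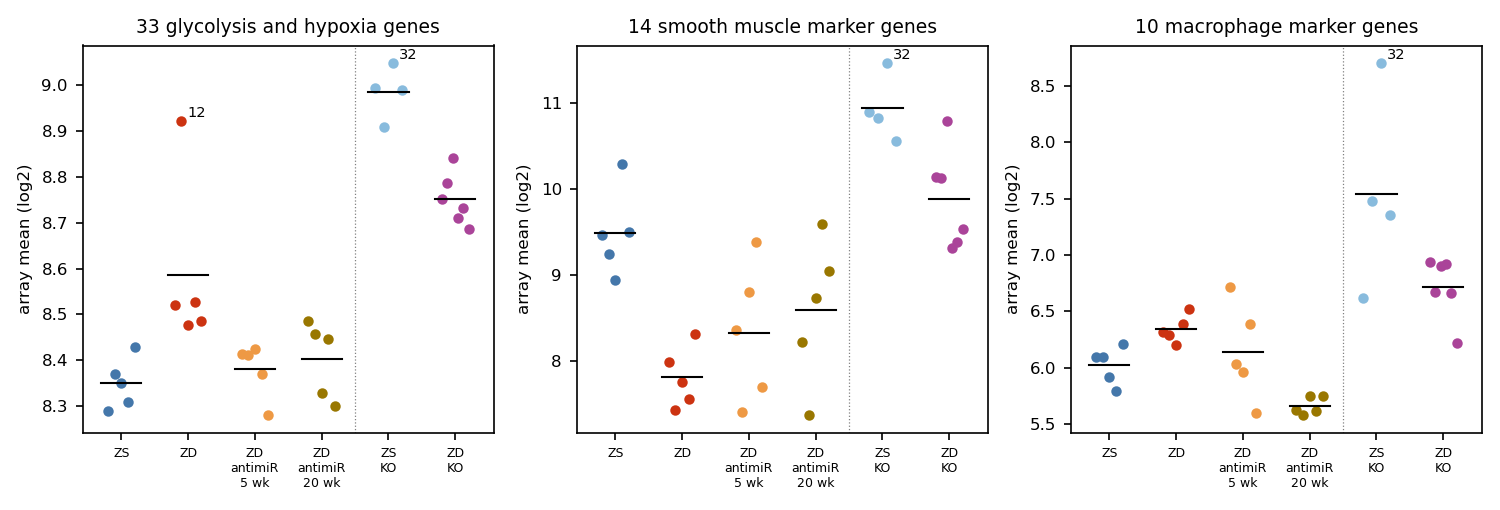
Mean log2 value per array over the 33 members (left), 14 smooth muscle markers (middle) and 10 macrophage markers (right) in the 6 groups. A bar marks the group mean, and the dotted line precedes the knockout arrays, which were taken as normalized separately. Arrays 12 and 32 are numbered. Smooth muscle means of the ZD arrays (7.42 to 8.31) lie below those of the ZS arrays (8.94 to 10.28), and ZS knockout array 32 has the highest macrophage mean, 8.70.

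In miR-31 knockout rats none of the 33 members rose on the deficient diet and 8 fell: P4ha2, Gpi, Pfkl, Slc2a3, Eno1, Eno2, Aldoc and Gys1. Over all genes, 9.47% rose and 12% fell. The members' median change was -0.18 against 0.005 over all genes, and 10 of 33 were above 0 where 51% of all genes were. The 6 ZD arrays lay wholly below the 4 ZS arrays for 5 members, where 7.15% of all genes did so.

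P4ha2, a catalytic subunit of the collagen prolyl hydroxylase, changed with the smallest adjusted p. Its values were 7.74, 7.82, 8.23 and 8.00 on the ZS knockout arrays and between 6.84 and 7.38 (median 7.18) on the ZD knockout arrays. The groups did not overlap, and P4ha2 fell by 0.78 (SE 0.12, adjusted p = 3.99e-05). A less bright probe set also differed downward, by -0.37.

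Among the enzymes, Gpi measured 10.69, 10.58, 10.69 and 10.80 on ZS and between 9.94 and 10.29 (median 10.20) on ZD. Without overlap, Gpi fell by 0.55 (SE 0.10, adjusted p = 0.000481). Pfkl measured 7.80, 7.55, 7.71 and 7.79 on ZS and between 6.88 and 7.25 (median 7.07) on ZD, again without overlap, and fell by 0.66 (SE 0.14, adjusted p = 0.00119). Eno1 measured 11.62, 11.67, 11.50 and 12.00 on ZS and between 10.74 and 11.34 (median 11.26) on ZD. The groups did not overlap, and Eno1 fell by 0.53 (SE 0.15, adjusted p = 0.0158). Eno2 measured 6.96, 7.59, 8.49 and 7.36 and between 6.08 and 7.53 (median 6.75), with overlap, and fell by 0.87 (SE 0.28, adjusted p = 0.025). It was the only member to fall in both genotypes. Aldoc measured 6.56, 6.48, 6.79 and 6.63 and between 5.79 and 6.48 (median 6.15), and fell by 0.47 (SE 0.16, adjusted p = 0.032).

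Of the glucose transporters, Slc2a3 measured 5.75, 5.76, 6.53 and 5.71 on ZS and between 5.16 and 5.73 (median 5.33) on ZD, and fell by 0.54 (SE 0.13, adjusted p = 0.00551). Array 32, at 6.53, stood above the other ZS arrays (5.71 to 5.76), and without it the difference was -0.34 (adjusted p = 0.0558). Slc2a1 measured 9.63, 9.75, 9.45 and 9.60 on ZS and between 9.62 and 10.18 (median 9.88) on ZD, a difference of 0.27 (SE 0.15, adjusted p = 0.206). Of the glycogen genes, Gys1 fell by 0.40 (SE 0.14, adjusted p = 0.0372) and Pgm1 differed by -0.53 (SE 0.23, adjusted p = 0.0983).

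None of the 11 members that rose in unedited rats was called here, and Pfkfb3 had the highest difference among them. Hk2 measured 5.20, 5.24, 4.91 and 5.41 on ZS and between 4.94 and 6.00 (median 5.46) on ZD, a difference of 0.26 (SE 0.27, adjusted p = 0.544). Ldha measured 11.69, 11.86, 11.91 and 11.93 and between 11.55 and 12.13 (median 11.84), a difference of -0.01 (SE 0.17, adjusted p = 0.969). Bnip3 measured 8.05, 8.20, 8.49 and 8.18 and between 7.66 and 8.45 (median 8.15), a difference of -0.15 (SE 0.24, adjusted p = 0.693). All of these groups overlapped. Ndrg1 measured 9.01, 9.14, 9.62 and 9.17 on ZS and between 8.12 and 8.71 (median 8.62) on ZD. Its ZD values were all lower, but the difference of -0.70 (SE 0.40, adjusted p = 0.218) missed the threshold. Ddit4 measured 9.04, 9.41, 9.49 and 9.03 and between 8.69 and 9.31 (median 8.89), a difference of -0.32 (SE 0.23, adjusted p = 0.358). Pfkfb3, at 6.90, 6.76, 7.19 and 6.73 on ZS and between 7.11 and 7.62 (median 7.29) on ZD, differed upward by 0.42 (SE 0.18, adjusted p = 0.0866).

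The remaining risen members, Tpi1, Pfkp, Pgam1 and Ero1a, had differences close to 0. Tpi1 measured 11.21, 11.23, 11.18 and 11.49 on ZS and between 11.06 and 11.36 (median 11.20) on ZD, with a difference of -0.08 (SE 0.15, adjusted p = 0.755). Pfkp measured 10.96, 11.00, 10.88 and 10.95 and between 10.84 and 11.08 (median 10.94), with a difference of 0.0039 (SE 0.11, adjusted p = 0.985). Pgam1 measured 11.81, 11.67, 11.64 and 11.77 and between 11.47 and 11.88 (median 11.64), with a difference of -0.08 (SE 0.10, adjusted p = 0.594). For each of them the ZD and ZS arrays overlapped. Ero1a measured 8.14, 7.93, 7.99 and 8.05 and between 8.00 and 8.22 (median 8.03), with a difference of 0.04 (SE 0.10, adjusted p = 0.798). Ldhb measured 8.92, 8.50, 8.98 and 8.43 and between 7.62 and 8.58 (median 8.04), below the lowest ZS array on all ZD arrays but 1, with a difference of -0.62 (SE 0.28, adjusted p = 0.109). Ankrd37 measured 4.88, 4.96, 5.47 and 5.15 and between 4.52 and 5.08 (median 4.86), with a difference of -0.28 (SE 0.13, adjusted p = 0.129).

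Hk1 and the lactate carriers were not called in knockout rats. Hk1 measured 10.27, 10.00, 9.69 and 9.86 on ZS and between 9.78 and 10.09 (median 9.87) on ZD, a difference of -0.08 (SE 0.09, adjusted p = 0.573). Slc16a1 measured 9.66, 9.29, 9.26 and 9.52 and between 8.84 and 10.06 (median 9.40), a difference of 0.04 (SE 0.24, adjusted p = 0.929). Slc16a3 measured 5.19, 4.89, 5.18 and 4.91 and between 4.72 and 5.08 (median 4.85), a difference of -0.18 (SE 0.22, adjusted p = 0.607). These groups overlapped as well.

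Other cell markers and control probes also differed between the knockout groups. Smooth muscle markers fell in 5 of 14 cases (array means 9.31 to 10.79 on ZD and 10.55 to 11.46 on ZS), macrophage markers in 5 of 10 (6.22 to 6.93 and 6.62 to 8.70), endothelial markers in 3 of 8 (6.97 to 7.63 and 7.60 to 8.45), fibroblast markers in 3 of 10 (9.04 to 10.16 and 9.61 to 11.40) and T and B cell markers in 3 of 8 (5.03 to 5.28 and 4.96 to 7.28). Of 20 striated muscle markers 1 fell, of 6 neutrophil markers 1 rose and 1 fell, and of 11 squamous epithelium markers 2 rose. Over all genes, 9.47% rose and 12% fell. The 3′ minus 5′ difference of the Hk1 control probes was 1.41 to 1.65 on ZS knockout arrays, -0.18 to 0.52 on ZD knockout arrays and -0.13 to 0.30 on unedited arrays, and that of Gapdh was 0.01 to 0.50, 0.31 to 1.23 and 0.13 to 0.48. Their part in the fall of the 8 members was not tested. With smooth muscle as a covariate 4 members were called, and the share called over all genes was 10.8% in place of 21.4%. Without ZS array 32, which had the highest macrophage mean, 4 members were called, and without ZD array 37, 5. The calls of P4ha2, Gpi and Pfkl held without any single array, that of Eno1 was lost without ZS array 33, and that of Eno2 without ZD array 37, ZD array 39 or ZS array 32, where Eno2 differed by -0.57 (adjusted p = 0.185). The call of Aldoc was lost in 5 of 10 such settings and that of Gys1 in 5 of 10.

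The diet change itself differed between genotypes for 10 members, always lower in knockout rats. Over all genes, 3.78% had a higher and 4.61% a lower diet change in knockout rats. The members' median difference of diet changes, knockout minus unedited, was -0.51 against -0.007 over all genes. Below 0 were 27 of 33, where 48.8% of all genes were above 0. Of the 10, 6 had risen on ZD in unedited rats and 4 had fallen in knockout rats. No member both rose in unedited rats and fell in knockout rats by the threshold.

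Ndrg1 differed by -2.08 (SE 0.55, adjusted p = 0.0217) and Bnip3 by -1.55 (SE 0.33, adjusted p = 0.00559). Ddit4 differed by -1.07 (SE 0.33, adjusted p = 0.0406). These hypoxia-induced genes had risen in unedited rats and had diet differences below 0 in knockout rats. Among enzymes, Gpi differed by -0.84 (SE 0.14, adjusted p = 0.0011), Pfkl by -0.83 (SE 0.19, adjusted p = 0.00831) and Eno1 by -0.97 (SE 0.22, adjusted p = 0.00769). Those 3 had fallen in knockout rats and had positive, uncalled differences in unedited rats. Tpi1 differed by -0.79 (SE 0.22, adjusted p = 0.0243), Pgam1 by -0.51 (SE 0.14, adjusted p = 0.0243) and Ldha by -0.75 (SE 0.23, adjusted p = 0.0442), each with a knockout difference close to 0. P4ha2 differed by -0.53 (SE 0.16, adjusted p = 0.0415), and its uncalled difference in unedited rats was also below 0.

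For several members that rose in unedited rats, the difference between genotypes was not called. It was -0.63 (SE 0.21, adjusted p = 0.0608) for Slc2a1, -0.49 (SE 0.16, adjusted p = 0.0539) for Pfkp and -0.88 (SE 0.38, adjusted p = 0.152) for Hk2. It was -0.38 (SE 0.14, adjusted p = 0.0815) for Ero1a and -0.34 (SE 0.25, adjusted p = 0.449) for Pfkfb3. For Eno2 and Ldhb, which fell in unedited rats, it was 0.28 (SE 0.39, adjusted p = 0.725) and 0.54 (SE 0.39, adjusted p = 0.44). Leaving out single arrays, the calls of Gpi, Bnip3, Eno1, Pfkl, Pgam1 and Tpi1 held in all 20 settings, that of Ndrg1 was lost without ZS knockout array 32, and those of P4ha2, Ddit4 and Ldha were lost in 11, 14 and 15 settings. Without ZS knockout array 32, 6 members were called in place of 10, and with smooth muscle as a covariate 8 were, while the share over all genes was 9.69% in place of 8.39%. Of the markers of other cells, 5 of 10 for macrophages and 2 of 8 for endothelium had a lower diet change in knockout rats by the threshold. So did 1 of 10 for fibroblasts and 1 of 8 for T and B cells. Of 6 neutrophil markers, 1 had a lower and 1 a higher diet change by the threshold (4.61% and 3.78% of all genes). For smooth muscle 0 of 14 were called in either direction, and 2 had an unadjusted p under 0.05 (limma). Of these 14, 11 were above 0 and 3 below (median 0.58). All 10 macrophage markers (median -1.04) and all 8 endothelial markers (median -0.79) were below 0, with an unadjusted p under 0.05 for 9 and 7 of them. The part of these cells in the difference was not tested.

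With antimiR most of these genes were lower on average than in untreated ZD rats, and a single member passed the threshold, Ndrg1 at 20 weeks. After 5 weeks none of the 33 members was called in limma, where 0% of all genes were, although 10 had an unadjusted p under 0.05. The median difference from untreated ZD was -0.15 against 0.005 over all genes. Below 0 were 27 of 33, where 51.5% of all genes were above 0. After 20 weeks 1 member fell and none rose (0.485% and 0.162% of all genes), and 14 had an unadjusted p under 0.05. The median was -0.11 against -0.006 over all genes. Below 0 were 23 of 33, where 48.6% of all genes were above 0. Between 20 and 5 weeks no member was called, where 0.0211% of all genes were, and 1 had an unadjusted p under 0.05. The 5-week and 20-week comparisons share the untreated ZD arrays, and without ZD array 12 their medians were -0.09 and -0.10. The share of all genes with an unadjusted p under 0.05 was not computed in any comparison, so the counts at that level have no share beside them. Markers of other cells differed in the same comparison at 20 weeks, none by the adjusted threshold in limma. An unadjusted p under 0.05 was reached by 7 of 10 macrophage markers (median -0.69), 6 of 14 smooth muscle markers (median 0.71) and 3 of 6 neutrophil markers. The macrophage mean per array was 5.58 to 5.75 at 20 weeks and 6.21 to 6.53 in untreated ZD rats, without overlap, and 5.60 to 6.72 at 5 weeks. Their part in the members' differences was not tested.

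The member that fell was Ndrg1. It measured 7.28, 7.42, 7.72, 7.53 and 7.95 on the 20-week arrays and 8.17, 8.26, 8.53, 7.78 and 7.11 on the 5-week arrays, beside the ZD values given above. Apart from array 5, every 20-week value was below every ZD value. Ndrg1 fell by 1.60 (SE 0.39, adjusted p = 0.04997) at 20 weeks, just inside the threshold, and differed by -1.21 (SE 0.39, adjusted p = 0.49) at 5 weeks. The call was lost in 15 of 20 alternative settings, among them the one without array 12, which gave -1.03 (adjusted p = 0.102). Among the other members that had risen on ZD, Slc2a1 measured 9.89, 10.06, 10.29, 10.01 and 10.02 at 5 weeks and 10.22, 10.55, 10.00, 9.70 and 9.77 at 20 weeks. Its differences from ZD were -0.42 (SE 0.15, adjusted p = 0.503) and -0.42 (SE 0.15, adjusted p = 0.167). Hk2 measured 5.12, 5.66, 5.74, 5.70 and 5.35 and 5.84, 5.99, 5.24, 5.16 and 5.03, with differences of -0.59 (SE 0.27, adjusted p = 0.645) and -0.65 (SE 0.27, adjusted p = 0.242).

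Bnip3 measured 9.32, 9.38, 9.53, 9.22 and 8.40 at 5 weeks and 9.53, 9.57, 8.61, 9.24 and 8.55 at 20 weeks, with differences from ZD of -0.39 (SE 0.23, adjusted p = 0.765) and -0.46 (SE 0.23, adjusted p = 0.354). Array 10 was low among the 5-week arrays. Pfkfb3 measured 7.61, 8.01, 7.92, 7.46 and 7.20 and 7.97, 7.64, 7.29, 7.46 and 7.14, with differences of 0.05 (SE 0.17, adjusted p = 0.969) and -0.09 (SE 0.17, adjusted p = 0.859). Its treated arrays overlapped the ZD arrays through most of their range. Ldha measured 11.49, 11.65, 12.02, 11.96 and 11.76 and 11.77, 12.06, 11.29, 11.35 and 11.42, with differences of -0.26 (SE 0.16, adjusted p = 0.78) and -0.45 (SE 0.16, adjusted p = 0.174). Array 2 was the highest of the 20-week arrays for Slc2a1, Hk2, Bnip3, Ldha, Tpi1 and Ddit4.

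None of the other risen members was called. Tpi1 measured 10.97, 11.14, 11.30, 11.35 and 10.79 and 11.39, 11.44, 10.79, 11.01 and 10.65, with differences of -0.29 (SE 0.15, adjusted p = 0.71) and -0.35 (SE 0.15, adjusted p = 0.274). Pgam1 measured 11.51, 11.52, 11.73, 11.68 and 11.62 and 11.75, 11.78, 11.54, 11.25 and 11.43, with differences of -0.15 (SE 0.10, adjusted p = 0.785) and -0.21 (SE 0.10, adjusted p = 0.303). Pfkp measured 10.90, 10.92, 11.33, 11.46 and 11.07 and 11.22, 11.31, 10.80, 10.63 and 10.90, with differences of -0.04 (SE 0.11, adjusted p = 0.959) and -0.20 (SE 0.11, adjusted p = 0.4). In each the treated arrays overlapped the ZD arrays. Ero1a measured 7.78, 7.76, 8.03, 7.90 and 7.97 and 8.22, 8.29, 7.92, 7.69 and 7.74, with differences of -0.10 (SE 0.10, adjusted p = 0.837) and -0.03 (SE 0.10, adjusted p = 0.936). Ddit4 measured 8.63, 8.95, 9.10, 9.04 and 8.64 and 8.91, 9.80, 8.25, 8.68 and 8.67, with differences of -0.47 (SE 0.23, adjusted p = 0.692) and -0.48 (SE 0.23, adjusted p = 0.319).

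The members that fell on ZD, Ldhb and Eno2, were not called with antimiR against untreated ZD rats. Ldhb measured 7.29, 6.74, 6.20, 6.67 and 6.60 at 5 weeks and 6.50, 6.42, 7.47, 8.15 and 7.42 at 20 weeks, with differences from ZD of -0.03 (SE 0.27, adjusted p = 0.99) and 0.46 (SE 0.27, adjusted p = 0.435). Eno2 measured 4.92, 4.39, 4.80, 5.16 and 4.54 and 4.54, 4.09, 4.99, 4.89 and 4.97, with differences of 0.19 (SE 0.27, adjusted p = 0.904) and 0.12 (SE 0.27, adjusted p = 0.881). The 20-week arrays spread over 6.42 to 8.15 for Ldhb and 4.09 to 4.99 for Eno2. Ankrd37 measured 4.26, 3.96, 4.21, 3.80 and 4.29 and 4.55, 4.75, 4.48, 4.42 and 4.66, with differences of -0.58 (SE 0.13, adjusted p = 0.328) and -0.11 (SE 0.13, adjusted p = 0.735). Its 5-week arrays all lay below the ZD arrays, as 0.485% of all genes did.

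Members without a diet call in unedited rats were not called against untreated ZD rats either. Gpi measured 9.90, 9.78, 9.88, 9.89 and 9.89 and 9.99, 10.10, 9.84, 9.72 and 9.56, with differences from ZD of -0.24 (SE 0.10, adjusted p = 0.599) and -0.27 (SE 0.10, adjusted p = 0.193). Pfkl measured 5.90, 6.00, 6.08, 6.44 and 6.28 and 6.20, 5.86, 6.17, 6.03 and 6.40, with differences of -0.38 (SE 0.13, adjusted p = 0.503) and -0.39 (SE 0.13, adjusted p = 0.162). Eno1 measured 10.50, 10.83, 11.09, 10.78 and 10.70 and 10.91, 11.07, 10.49, 10.44 and 10.31, with differences of -0.31 (SE 0.15, adjusted p = 0.694) and -0.45 (SE 0.15, adjusted p = 0.158). These enzymes were lower on average than in untreated ZD rats. P4ha2 measured 6.82, 6.76, 6.74, 7.14 and 6.87 and 6.60, 6.59, 6.91, 7.05 and 6.85, with differences of -0.0039 (SE 0.11, adjusted p = 0.998) and -0.07 (SE 0.11, adjusted p = 0.815). Aldoc measured 6.13, 6.22, 6.10, 5.91 and 5.95 and 6.64, 6.33, 5.96, 6.11 and 6.02, with differences of -0.19 (SE 0.15, adjusted p = 0.821) and -0.04 (SE 0.15, adjusted p = 0.935). Slc2a3 measured 3.69, 3.41, 3.44, 3.63 and 3.57 and 3.48, 3.29, 3.49, 3.44 and 3.56, with differences of -0.01 (SE 0.13, adjusted p = 0.99) and -0.11 (SE 0.13, adjusted p = 0.75). These groups all overlapped the ZD arrays.

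Both lactate carriers were lower on average with antimiR, without a call. Slc16a1 measured 8.81, 9.70, 9.17, 9.57 and 9.78 at 5 weeks and 8.77, 9.31, 9.58, 8.87 and 8.79 at 20 weeks, with differences of -0.16 (SE 0.24, adjusted p = 0.905) and -0.51 (SE 0.24, adjusted p = 0.316). Slc16a3 measured 5.14, 4.89, 4.75, 4.81 and 4.46 and 5.29, 4.93, 4.77, 5.06 and 4.84, with differences of -0.63 (SE 0.21, adjusted p = 0.503) and -0.46 (SE 0.21, adjusted p = 0.316). Hk1 measured 9.60, 9.61, 9.61, 9.69 and 9.88 and 9.69, 9.60, 9.80, 9.63 and 9.72, with differences of 0.17 (SE 0.09, adjusted p = 0.706) and 0.18 (SE 0.09, adjusted p = 0.316).

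**Figure D4:**
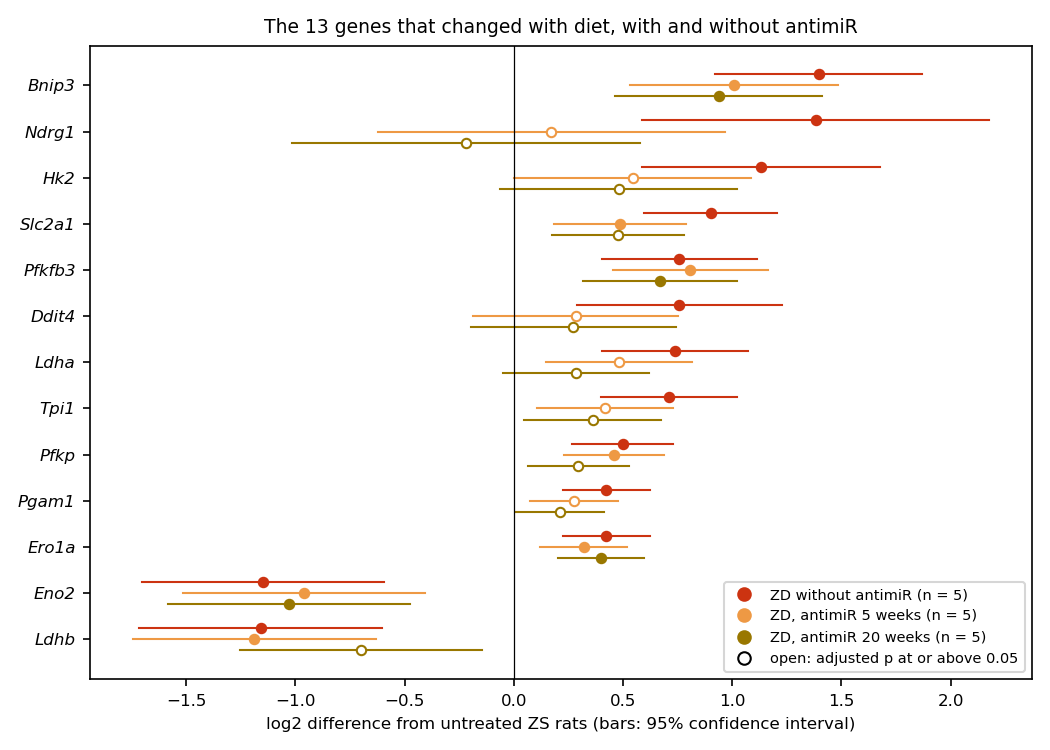
Log2 difference from untreated ZS rats, with 95% confidence intervals, of the 13 members that changed with diet, in ZD rats without antimiR (red) and with antimiR for 5 weeks (orange) or 20 weeks (brown), n = 5 each; all comparisons share the 5 ZS arrays. Of these 13, 7 have a filled orange point and 4 a filled brown one (limma adjusted p under 0.05), where 9.08% and 3.63% of all genes were called. The red points are all filled because the 13 were chosen by that call. The numbers of filled points can therefore not be compared between red and the other colours. Because that call used the same ZS arrays, the 7 and 4 of 13 can also not be read against the shares of all genes. Ndrg1 with antimiR lies near 0.

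Set against ZS rats, which these comparisons share with the diet comparison, ZD rats with 5 weeks of antimiR had 5 members higher and 3 lower (4.6% and 4.48% of all genes). Higher were Pfkfb3 by 0.81 (SE 0.17, adjusted p = 0.00408), Bnip3 by 1.01 (SE 0.23, adjusted p = 0.00661), Slc2a1 by 0.49 (SE 0.15, adjusted p = 0.0374), Pfkp by 0.46 (SE 0.11, adjusted p = 0.0105) and Ero1a by 0.32 (SE 0.10, adjusted p = 0.0354). On the low side Ldhb differed by -1.19 (SE 0.27, adjusted p = 0.0064), Eno2 by -0.96 (SE 0.27, adjusted p = 0.0243) and Ankrd37 by -0.44 (SE 0.13, adjusted p = 0.0297). After 20 weeks 3 members were higher and 1 lower (1.83% and 1.8% of all genes). Higher were Ero1a by 0.40 (SE 0.10, adjusted p = 0.0205), Bnip3 by 0.94 (SE 0.23, adjusted p = 0.0233) and Pfkfb3 by 0.67 (SE 0.17, adjusted p = 0.0287), and Eno2 differed by -1.03 (SE 0.27, adjusted p = 0.0318). With the mean of its probe sets, Pfkfb3 differed from ZS by 0.33 (limma adjusted p = 0.039) at 5 weeks and 0.25 (limma adjusted p = 0.167) at 20 weeks. Smooth muscle means ran from 7.40 to 9.38 at 5 weeks and from 7.37 to 9.60 at 20 weeks. With that mean as a covariate 1 member was called at 5 weeks and none at 20 weeks, where 2.12% and 0.844% of all genes were, in place of 9.08% and 3.63%. Without 5-week array 7, 9 or 10 the count at 5 weeks was 5, and without ZS array 19 it was 4. At 20 weeks no member was called without antimiR array 1, antimiR array 2 or ZS array 16, and 2 were called without ZS array 19 or 20.

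Of 10 oxygen sensing genes outside the list, 1 rose and 2 fell with the diet in unedited rats, where 6.94% and 6.95% of all genes did. With smooth muscle as a covariate the share called over all genes in this comparison dropped from 13.9% to 1.23%. Whether the calls given here and below for genes outside the list held in that fit is not reported here. Hif1a, the oxygen-regulated subunit of HIF-1, rose by 0.83 (SE 0.13, adjusted p = 0.000187). Its mean was 10.81 ± 0.12 on ZS and 11.64 ± 0.26 on ZD arrays (SD, n = 5 each). Egln3, a prolyl hydroxylase that marks HIF subunits for destruction, fell by 0.91 (SE 0.23, adjusted p = 0.00913). Epas1, the HIF-2 subunit, fell by 0.52 (SE 0.14, adjusted p = 0.0177). In knockout rats none of the 10 was called in limma. Hif1a differed there by 0.03 (SE 0.13, adjusted p = 0.886), Egln3 by -0.09 (SE 0.23, adjusted p = 0.834) and Epas1 by -0.16 (SE 0.15, adjusted p = 0.486). The difference between genotypes was called for Hif1a, at -0.80 (SE 0.19, adjusted p = 0.00949), and not for Egln3, at 0.82 (SE 0.33, adjusted p = 0.118), or Epas1, at 0.36 (SE 0.21, adjusted p = 0.309).

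With antimiR, none of the 10 was called against untreated ZD rats. Hif1a differed by -0.14 (SE 0.13, adjusted p = 0.834) at 5 weeks and -0.37 (SE 0.13, adjusted p = 0.169) at 20 weeks. Egln3 differed by -0.38 (SE 0.23, adjusted p = 0.768) and 0.63 (SE 0.23, adjusted p = 0.18), and Epas1 by 0.16 (SE 0.14, adjusted p = 0.834) and 0.34 (SE 0.14, adjusted p = 0.262). Against ZS rats Hif1a was higher at both times, by 0.69 (SE 0.13, adjusted p = 0.00173) and 0.47 (SE 0.13, adjusted p = 0.0414), and Egln3 was lower at 5 weeks, with a difference of -1.29 (SE 0.23, adjusted p = 0.00113).

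Of 25 other HIF targets measured, 8 rose and 2 fell on ZD in unedited rats (6.94% and 6.95% of all genes). Lox, which cross-links collagen, rose by 1.95 (SE 0.26, adjusted p = 8.04e-05), Vegfa, the vessel growth factor, by 0.82 (SE 0.13, adjusted p = 0.000235) and Plin2, which coats lipid droplets, by 0.83 (SE 0.16, adjusted p = 0.00154). In knockout rats 1 rose and 2 fell, shares of the 25 no larger than the 9.47% and 12% of all genes: Tgfa, an EGF receptor ligand, rose by 0.84 (SE 0.21, adjusted p = 0.005), and the collagen lysyl hydroxylases Plod1 and Plod2 fell, changing by -0.65 (SE 0.16, adjusted p = 0.004) and -0.88 (SE 0.29, adjusted p = 0.0327). The diet change was lower in knockout rats for 6 of 25 and higher for 1 (4.61% and 3.78% of all genes). Vegfa differed by -1.05 (SE 0.19, adjusted p = 0.00178), Plin2 by -1.08 (SE 0.23, adjusted p = 0.00595) and Lox by -1.72 (SE 0.38, adjusted p = 0.0067). After 20 weeks of antimiR 3 of the 25 fell against untreated ZD rats and none rose (0.485% and 0.162% of all genes). Plin2 changed by -0.87 (SE 0.16, adjusted p = 0.0191), Adm, the vasodilator adrenomedullin, by -1.47 (SE 0.29, adjusted p = 0.0196) and Vegfa by -0.55 (SE 0.13, adjusted p = 0.04997). None was called after 5 weeks.

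The counts for genes next to glycolysis are to be read against the same shares of all genes, 6.94% up and 6.95% down in unedited rats and 9.47% up and 12% down in knockout rats. Of 24 other isoforms and transporters, 3 rose and 1 fell on ZD in unedited rats. Emb, a partner protein of the lactate carriers, rose by 1.59 (SE 0.26, adjusted p = 0.000301), Pgm2 rose by 0.43 (SE 0.13, adjusted p = 0.0315) and Slc16a7, the carrier MCT2, fell by 1.23 (SE 0.31, adjusted p = 0.00878). In knockout rats 3 of the 24 rose, Emb among them by 0.81 (SE 0.27, adjusted p = 0.0327), and none differed in diet change between genotypes. Of 14 genes of glycogen breakdown and gluconeogenesis, Pygb, a glycogen phosphorylase, fell by 1.01 (SE 0.17, adjusted p = 0.000268) in unedited rats. In knockout rats 3 of 14 fell: G6pc3 changed by -0.43 (SE 0.08, adjusted p = 0.000242), Pygb by -0.86 (SE 0.17, adjusted p = 0.000801) and Pck2 by -0.45 (SE 0.12, adjusted p = 0.00989).

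Of 28 genes of pyruvate oxidation and the citric acid cycle, 2 rose and 4 fell in unedited rats on ZD, a share of risen genes close to that over all genes. Pdk3, a kinase that inhibits pyruvate dehydrogenase, rose by 0.69 (SE 0.12, adjusted p = 0.00044), Idh3a rose by 0.46 (SE 0.12, adjusted p = 0.0129) and Idh2 fell by 0.46 (SE 0.12, adjusted p = 0.0096). In knockout rats 3 rose and 5 fell, with Pdk3 changing by 0.54 (SE 0.12, adjusted p = 0.00225), Sdha, a subunit of succinate dehydrogenase, by -0.49 (SE 0.06, adjusted p = 5.7e-06) and Pdk2 by -0.61 (SE 0.12, adjusted p = 0.000612). Mpc1, a subunit of the mitochondrial pyruvate carrier, fell by 0.32 (SE 0.07, adjusted p = 0.0286) after 20 weeks of antimiR. Of 6 pentose phosphate genes, 1 rose and 2 fell in each genotype. In unedited rats Rpe rose by 0.36 (SE 0.10, adjusted p = 0.016), and Taldo1 and Rpia changed by -0.31 (SE 0.08, adjusted p = 0.00973) and -0.61 (SE 0.16, adjusted p = 0.0126). In knockout rats Rpe rose by 0.42 (SE 0.10, adjusted p = 0.00378), and Pgls and Tkt changed by -0.31 (SE 0.08, adjusted p = 0.00977) and -0.39 (SE 0.12, adjusted p = 0.0177).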

How the data were processed

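The authors deposited 1 log2 value per probe set and array (Affymetrix rat arrays), made with Affymetrix Expression Console and RMA, per the submitters' processing notes, which name no version. RNA integrity numbers were 8 or more, per the labels' protocols. Of 31099 probe sets, 20826 named 1 gene, 436 several and 9780 none, and 57 were controls; 20758 were matched by gene ID to the RefSeq table of build GRCr8. Each of the 14217 genes was represented by its brightest probe set over the 30 arrays (4525 genes had several). The arrays carry no detection calls.

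limma 3.58.1 in R 4.3.3 was fitted to all 30 arrays with 1 coefficient per group; 8 comparisons were tested with eBayes and Benjamini-Hochberg adjustment within each, at 0.05. Groups are of 4 to 6 rats, and array number limits the precision. The members and pathway and marker lists were chosen with earlier results of these data known. Values on every array are given for members called in at least 1 comparison, up to 20 by smallest adjusted p, and for the pairs Hk1 and Hk2, Ldha and Ldhb, and Slc16a1 and Slc16a3; each pathway list gives up to 3 called genes, and Egln3, Hif1a and Epas1 always. Alternatives were quantile normalization, centring of arrays on their median, dropping the 30% of genes with the lowest means, trend and robust eBayes, array weights, the mean of all probe sets, smooth or striated muscle level as a covariate, fewer groups and leaving out each array. On simulated data for 14217 genes, 65 of 100 changes of 0.5 and 95 of 100 changes of 1 were recovered for diet in unedited rats, 61 and 98 for diet in knockout rats, and 70 and 93 for 20 weeks of antimiR, with 9, 8 and 11 false calls over both sizes together. The simulated noise was normal and independent between genes and arrays, so these recovery rates do not cover odd arrays or shifts in cell content. Promoters were searched with Python 3.11.15.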

Additional observations from a re-analysis of the deposited data

Results flagged for a closer look

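Among 198 sets of a gene and a group, 13 held an array that lay apart from the others by Dixon's criterion, where chance gives about 1 in 20. In untreated ZD rats Slc16a3 was 6.74 on array 12, against 4.92 to 5.40. In ZS rats Eno2 was 6.60 on array 19, against 5.37 to 5.66, Slc16a3 was 4.53 on array 19, against 4.93 to 5.01, and Pfkm was 7.98 on array 20, against 6.87 to 7.15. In the 5-week group Bnip3 was 8.40 on array 10, against 9.22 to 9.53, and Gpi was 9.78 on array 7, against 9.88 to 9.90. In the 20-week group array 2 was low for Bnip3l, at 11.39 against 11.92 to 12.12, and for Mxi1, at 8.86 against 9.45 to 9.66. In ZS knockout rats Slc2a3 was 6.53 on array 32, against 5.71 to 5.76, and Tpi1 was 11.49 on array 33, against 11.18 to 11.23. In ZD knockout rats array 38 was low for Bnip3l, at 11.01 against 11.60 to 11.83, and for Pfkfb4, at 8.31 against 8.85 to 8.95, and Hk1 was 10.09 on array 35, against 9.78 to 9.88.

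The diet change differed between knockout and unedited rats for 10 members by the limma interaction test (adjusted p from 0.0011 to 0.0442), with the knockout change the lower in each. The difference was -2.08 for Ndrg1, -1.55 for Bnip3, -1.07 for Ddit4, -0.97 for Eno1, -0.84 for Gpi, -0.83 for Pfkl, -0.79 for Tpi1, -0.75 for Ldha, -0.53 for P4ha2 and -0.51 for Pgam1.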

How the results depend on the processing

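Of the members called in each comparison, 12 of 13 for diet in unedited rats, 3 of 8 for diet in knockout rats and 6 of 10 for the difference between genotypes kept their call in every setting that left out 1 array; over all alternatives the numbers were 1, 3 and 5, and no called member changed sign. Leaving out 1 array at a time, the count of called members ran from 12 to 17 for diet in unedited rats, from 4 to 9 for diet in knockout rats, from 6 to 11 for the difference between genotypes, from 0 to 0 for 5 weeks of antimiR and for 20 against 5 weeks, from 0 to 3 for 20 weeks of antimiR, from 4 to 9 for 5 weeks against ZS and from 0 to 6 for 20 weeks against ZS. With smooth muscle level as a covariate the count was 1 for diet in unedited rats, 4 for diet in knockout rats, 1 for 5 weeks against ZS, 0 for 20 weeks against ZS and 0 for 20 weeks of antimiR. For 20 weeks of antimiR, with 1 member called, quantile normalization, median centring, trend and robust fitting, the mean of all probe sets, the striated muscle covariate, only the groups compared and only the arrays of the same set each gave 0, and array weights gave 4. For 20 weeks against ZS, with 4 called, only the groups compared gave 0 and only the arrays of the same set 1. Apart from the share of genes called with the muscle covariate, given above, the cause was not tested. No paired analysis was possible because the sample numbers in the labels are unique to each rat. Nothing says how rats were housed or processed together, so p-values measure the spread between these rats. Dim probe sets such as those of Slc2a3 and Ankrd37 lie close to the array's background, where RMA compresses differences.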

Other observations

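Gapdh, a listed enzyme with no probe set of its own in the tests, has a 3′ control probe set on the array. Its values ran from 12.03 to 12.39 on the 5 untreated ZD arrays and from 11.71 to 12.12 on the 5 ZS arrays. With antimiR they ran from 11.91 to 12.11 at 5 weeks and from 11.75 to 12.12 at 20 weeks. The knockout values were 12.01 to 12.32 on the ZD arrays and 12.23 to 12.49 on the ZS arrays. The order of the group means, ZD above ZS in unedited rats and below it in knockout rats, was that of 15 of the 33 members, Gpi and Eno1 among them. The 3′ minus 5′ difference of Gapdh was 0.312 to 1.23 on ZD and 0.005 to 0.495 on ZS knockout arrays. No test was run on a control probe set.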
